A study of Arabidopsis thaliana with 4 samples.

Results

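The 10 genes described here encode Aux/IAA proteins, the repressors of the auxin response in *A. thaliana*, and are *IAA1* (AT4G14560), *IAA2* (AT3G23030), *IAA3* (AT1G04240), *IAA5* (AT1G15580), *IAA6* (AT1G52830), *IAA14* (AT4G14550), *IAA17* (AT1G04250), *IAA19* (AT3G15540), *IAA20* (AT2G46990) and *IAA29* (AT4G32280). They were found as the array probes annotated with 1 of these 10 locus identifiers. The rule that found them reads identifiers and no measured value, but the list of identifiers was drawn up with earlier results of these data known. All 10 were present, with 13 probes, among 29030 named loci and 43603 probes, and a further 19 loci of the same family were on the array. The RefSeq annotation of assembly TAIR10.1 gave all 10 loci their IAA name, for 2 of them as a synonym.

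The study asked how the transcriptome of *A. thaliana* responds to volatile compounds (mVOCs) released by the bacterium *Erwinia amylovora*. Whole wild-type seedlings of the accession Col0, roots and shoots together, were 7 days old and shared the air of a divided dish for 16 h with the bacterium or, as the control, without it. RNA of 1 control sample (dye Cy3) and 1 mVOC-exposed sample (dye Cy5) was hybridised together on each of 4 two-colour Agilent arrays, 1 per biological replicate, with replicates 1 and 2 on slide 1 and replicates 3 and 4 on slide 2. The dyes were never swapped, so an effect of dye and an effect of exposure cannot be told apart for any gene.

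Aux/IAA proteins sit on auxin response factors (ARFs) at the promoters of auxin-responsive genes and bring in the TOPLESS corepressors. When auxin rises, it joins an Aux/IAA protein to an F-box receptor of the TIR1/AFB group, and the SCF ubiquitin ligase built around that receptor marks the repressor for destruction. Many *Aux/IAA* genes are themselves switched on by auxin, a negative feedback that makes their transcripts common readouts of the response.

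Of the 10 *Aux/IAA* genes, *IAA1* and *IAA17* were lower in the mVOC-exposed seedlings and none was higher, at an adjusted p below 0.05 in limma with Benjamini-Hochberg adjustment over 29013 loci. The log2 ratio of exposed over control was -0.27 ± 0.059 (SD, n = 4) for *IAA1* and -0.15 ± 0.037 (SD, n = 4) for *IAA17*, or 1.20-fold and 1.11-fold lower. The other 8 genes had mean log2 ratios between -0.091 and 0.069. Across all loci tested, 10.9% were lower and 11.7% were higher by the same rule, 22.7% in either direction, and the 2 of 10 genes called here lie close to that share. Before adjustment, 3 of the 10 were lower and 0 were higher at a p below 0.05 in limma. Of all 29030 loci, 5004 were lower and 5311 higher by that rule. An ordinary test without shared variance called none of the 10 in either direction after adjustment. That test called 1.07% of all loci lower and 1% higher. The median log2 ratio of the 10 genes was -0.0094, beside 0.0013 over all loci.

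The spread was similar in size on every array, but the genes above 0 were not the same on all of them. On each array 4 of the 10 genes lay above 0 and 6 below, with array medians between -0.055 and -0.014. The SD among the 10 genes was 0.113 to 0.153, while the SD over all loci was 0.146 to 0.174. *IAA1*, *IAA6*, *IAA17* and *IAA19*, 4 genes in all, had a ratio below 0 on all 4 arrays, which 20.4% of all loci also had. None had a ratio above 0 on all 4 arrays, as 20.8% of loci did. In 0 of the 10 genes did the 4 exposed levels lie wholly outside the 4 control levels, whereas 8.33% of loci had all exposed levels below and 8.54% had all exposed levels above the control levels. The signal of all 13 probes was well above background in both dyes on all 4 arrays, and none was saturated or marked as an outlier.

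**Figure D1:**
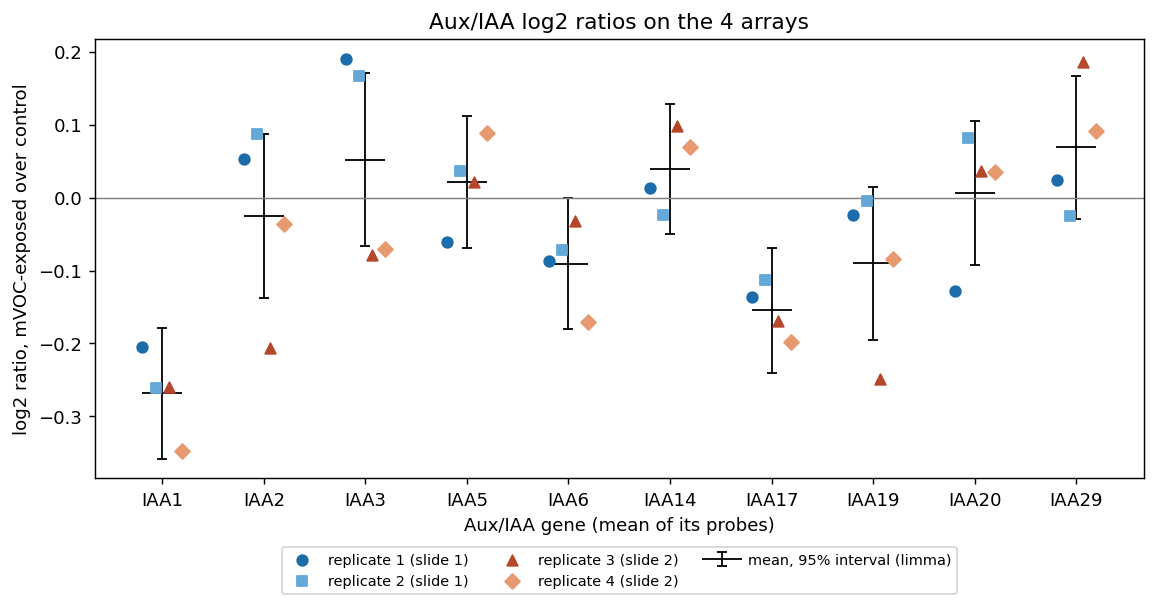
Log2 ratio of mVOC-exposed over control (vertical axis) for the 10 *Aux/IAA* genes (horizontal axis), with 1 point per array, slide 1 in blue and slide 2 in red. Horizontal bars are means and vertical bars 95% intervals from limma; *IAA1* and *IAA17* lie below 0 on all arrays, and *IAA2* and *IAA3* lie above 0 on slide 1 and below 0 on slide 2.

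The arrays had 74.2% to 78.8% of spots well above background in each dye, and their number limits the precision. The array of replicate 4 held 8 spots whose surroundings were brighter than 100 units, and spots marked for a non-uniform background were set aside on all arrays before background correction. With those spots included, the SD of the log2 ratios of replicate 4 was 0.103 in place of 0.157. A test of slide 2 against slide 1 called 0 loci in limma, with 4664 of 29002 loci at an unadjusted p below 0.05. Opposite signs on the slides were seen for 6 of the 10 *Aux/IAA* genes and for 32.7% of all loci.

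*IAA1* encodes the repressor that is stabilised in the auxin-resistant *axr5* mutant. Its normalised intensity, which includes an offset of 50 units, was 554, 615, 679 and 641 in the control samples of replicates 1 to 4. In the exposed samples it was 481, 514, 567 and 504. The exposed sample was the dimmer on each array, but the ranges of the groups overlapped, since the exposed sample of replicate 3 was brighter than the control sample of replicate 1. The log2 ratios were -0.20, -0.26, -0.26 and -0.35. Their mean of -0.27 had a 95% interval of -0.36 to -0.18 and an adjusted p of 0.00131 in limma. The slide means were -0.23 and -0.30. The call was kept when any 1 of the 4 arrays was left out, with ratios of -0.29 to -0.24 and adjusted p of 0.00265 to 0.0156.

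*IAA17*, also known as *AXR3*, encodes a repressor whose stabilised form makes roots agravitropic and poor in root hairs. Its intensity was 4214, 4531, 3939 and 4208 in the control samples and 3834, 4188, 3503 and 3669 in the exposed samples of replicates 1 to 4. The exposed sample was again the dimmer on each array and the ranges again overlapped. The log2 ratios were -0.14, -0.11, -0.17 and -0.20, and the mean of -0.15 had a 95% interval of -0.24 to -0.068 and an adjusted p of 0.0168 in limma. This call was lost without replicate 4, with a log2 ratio of -0.14 and an adjusted p of 0.0962 in limma. Without replicate 1, 2 or 3 the adjusted p was 0.0499, 0.0241 and 0.0476. The call was lost in 8 of 21 alternatives, with a ratio of -0.014 when arrays were centred on their median in place of loess.

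The probes of *IAA17* did not share a pattern over the arrays. The brighter probe had log2 ratios of -0.077, 0.0011, -0.33 and -0.27, a mean of -0.17 and an adjusted p of 0.0417 in limma over all probes. The dimmer probe had -0.20, -0.23, -0.0074 and -0.13, a mean of -0.14 and an adjusted p of 0.0542. The former was lower mainly on slide 2 and the latter mainly on slide 1, so the small SD of the gene's mean hides a larger spread of each probe. Among all probes tested, 11.4% were lower and 12% were higher.

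**Figure D2:**
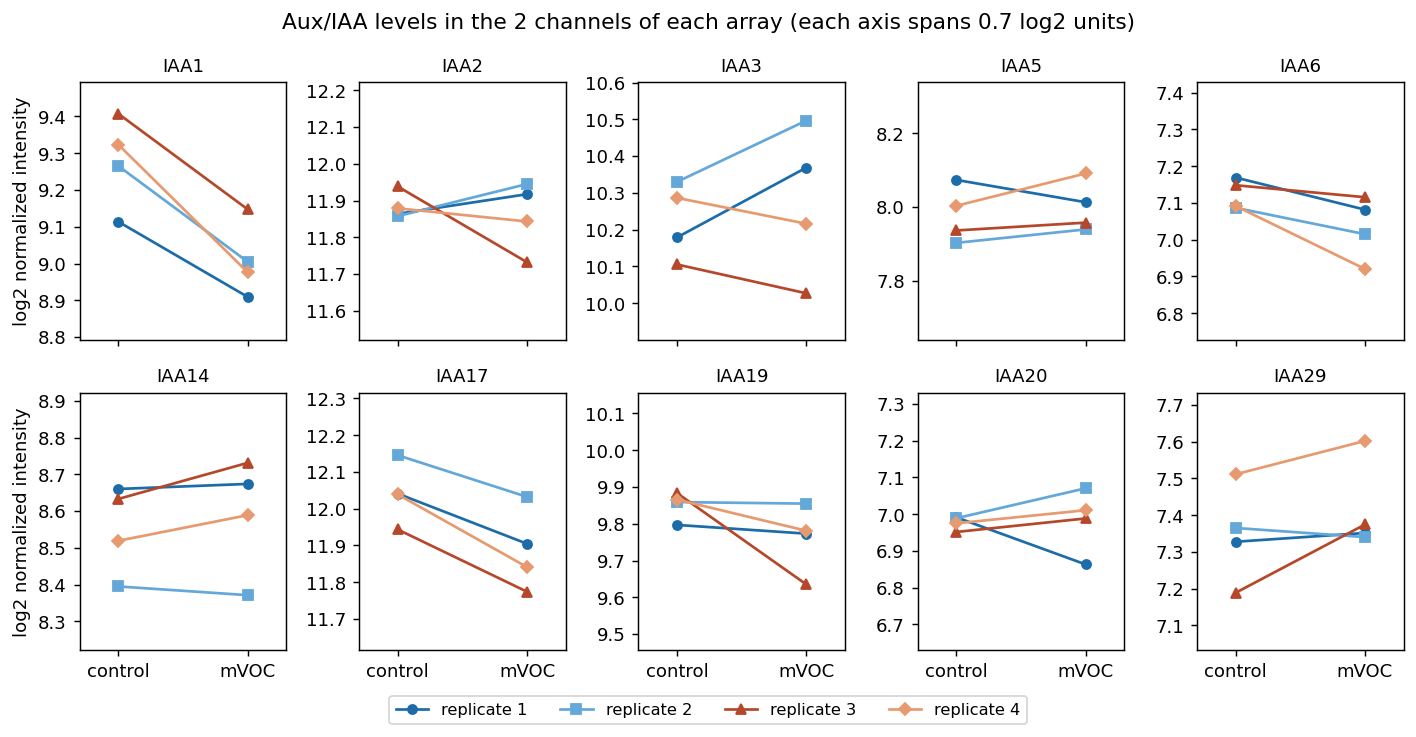
Log2 normalised intensity (vertical axis, 0.7 log2 units in every panel) of each *Aux/IAA* gene in the control and the mVOC-exposed sample (horizontal axis), with a line for each array. All lines fall for *IAA1*, *IAA6*, *IAA17* and *IAA19*, and lines of the other genes run both ways; heights are not comparable between genes because probes differ.

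*IAA3*, also known as *SHY2*, restrains auxin signalling at the border of the root meristem, where cytokinin activates it. Its log2 ratios were 0.19 and 0.17 on slide 1 and -0.078 and -0.070 on slide 2. The exposed intensities were 1322, 1445, 1043 and 1189 against 1159, 1287, 1101 and 1249 in the controls. The gene was thus higher on one slide and lower on the other, with a mean of 0.052 (95% interval -0.067 to 0.17, adjusted p = 0.528 in limma). The difference of -0.25 between slide 2 and slide 1 had an unadjusted p of 0.00412 in limma and an adjusted p of 0.214. *IAA17* is its neighbour on chromosome 1 with 1 annotated gene between them, and had ratios below 0 on both slides.

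*IAA2*, an auxin-inducible gene whose promoter is used in reporters of the auxin response in roots, also ran in opposite directions on the slides. Its log2 ratios were 0.053, 0.087, -0.21 and -0.036, with a mean of -0.025 (95% interval -0.14 to 0.087, adjusted p = 0.764 in limma). Its probes had means of 0.045 and -0.096, and the brighter of them was below 0 on all 4 arrays. With median centring of the arrays, the ratio of the gene was 0.11.

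*IAA14*, also known as *SLR*, blocks the start of lateral roots when its product is stabilised. Its ratios ran from -0.024 to 0.098, with a mean of 0.039 (95% interval -0.049 to 0.13, adjusted p = 0.522 in limma). Its neighbour on chromosome 4, with 1 annotated gene between them, is *IAA1*, whose ratios of -0.35 to -0.20 did not overlap with those of *IAA14*.

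*IAA19*, also known as *MSG2*, acts in the bending of hypocotyls towards light and against gravity. Its intensity was 889, 929, 944 and 933 in the control samples and 875, 926, 795 and 880 in the exposed samples. The exposed sample was the dimmer on all 4 arrays, by little on slide 1, and the log2 ratios were -0.024, -0.0042, -0.25 and -0.085. The mean of -0.090 (95% interval -0.20 to 0.015) did not pass the test (adjusted p = 0.201 in limma), and without replicate 3 it was -0.038 (adjusted p = 0.620).

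*IAA6*, also known as *SHY1*, had log2 ratios of -0.087, -0.072, -0.033 and -0.17. The mean was -0.091, with a 95% interval of -0.18 to -0.0011 and an adjusted p of 0.136 in limma. *IAA29*, a shade-induced gene and a target of the PIF transcription factors, had ratios of 0.024, -0.025, 0.19 and 0.091 and a mean of 0.069 (95% interval -0.029 to 0.17, adjusted p = 0.299 in limma). *IAA20*, whose product lacks the degron that auxin uses and is long-lived, had ratios between -0.13 and 0.081 and a mean of 0.0065 (95% interval -0.092 to 0.11, adjusted p = 0.938 in limma). *IAA5*, an early auxin-induced gene, had ratios between -0.061 and 0.088 and a mean of 0.021 (95% interval -0.069 to 0.11, adjusted p = 0.750 in limma).

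The probes of *IAA6*, *IAA20* and *IAA29* were dim, with intensities of 116 to 194 including the offset of 50, which pulls ratios of dim probes towards 0. Without the offset their log2 ratios were -0.15, 0.0086 and 0.091, and none passed the test. Over the 8 genes that did not pass, the 95% intervals covered fold changes from 0.873 to 1.13. A miss of the threshold does not show that these genes were equal in both groups. The intervals give the size of difference that the 4 arrays left possible under the reported processing. They do not cover the choice of processing: with median centring the log2 ratio of *IAA2* was 0.11, above its upper bound of 0.087.

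Whole seedlings are a mixture, and fewer cells of a type and less RNA per cell cannot be told apart in them. Of 10 root markers, 4 were lower and 0 were higher in limma, and 8 had a mean ratio below 0. By the same rule 10.9% of all loci were lower and 11.7% higher, the shares that also stand beside the shoot markers below. The called markers were *EXPA7* (-0.60), *PHT1;1* (-0.40), *RHD6* (-0.33) and *WER* (-0.15), the last with a call lost when replicate 1, 3 or 4 was left out. The summed intensity of the root markers was 73158 to 98108 in the control and 63466 to 83967 in the exposed samples, and on each of the 4 arrays the exposed sample differed from its control by -15.3% to -13.2%. *PHT1;1* made up 69.0% of the mean difference, and the sum of the other 9 was also lower on all 4 arrays. Of 8 shoot markers, 2 were higher, *RBCS1A* (0.47) and *RBCS3B* (0.43, from 3 arrays), and 2 were lower, *LHCB2.1* (-0.34) and *CAB2* (-0.12), the last with a call lost when any 1 array was left out and a direction that turned with median centring and with the brightest probe. The sum over the 7 shoot markers measured on all arrays was 388770 to 407443 in the control and 453477 to 486715 in the exposed samples. *RBCS1A* made up 87.5% of that mean difference, and without it the sums were 217955 to 237197 and 224812 to 249128, higher in the exposed sample on all 4 arrays. All 18 markers were well above background in both groups. With median centring in place of loess, 2 root markers were higher and 2 lower, and 7 shoot markers were higher and 1 lower, in a setting that called 27.2% of all loci higher and 25.9% lower. The part of these shifts in the lower values of *IAA1* and *IAA17* was not tested.

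Among the 19 other *Aux/IAA* genes, 1 was lower and 0 were higher in limma, with a median log2 ratio of -0.015. With median centring 5 of the 19 were higher and 3 lower, where 27.2% of all loci were higher and 25.9% lower. With the scanner software's own ratio 2 were higher and 4 lower, where 15.3% of all loci were called in each direction. Before adjustment, 4 were lower and 3 were higher at a p below 0.05, beside 5004 and 5311 of all 29030 loci. The gene called was *IAA16*, with ratios of -0.13, -0.097, -0.29 and -0.28, a mean of -0.20 and an adjusted p of 0.0106. That call was lost without replicate 4 (adjusted p = 0.0746), and the direction of *IAA16* turned when arrays were centred on their median. Over all 29 genes of the family, 3 were lower and 0 higher with the reported setting, against 10.9% and 11.7% of all loci.

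The receptors act upstream of the repressors. Of the 6 *TIR1/AFB* genes, 2 were lower and 0 higher, against 10.9% and 11.7% of all loci, with a median of -0.023. *TIR1*, the founding auxin receptor, had log2 ratios of -0.28, -0.28, -0.35 and -0.35 and a mean of -0.32 (adjusted p = 0.000445 in limma), and it was called in 21 of 21 alternatives. *AFB5*, the receptor best known for picloram-type auxins, had a mean of -0.18 (adjusted p = 0.0237), a call lost when replicate 1, 2 or 4 was left out. The other 4 receptor genes had means between -0.075 and 0.060 and did not pass.

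The 4 SCF subunits that join the receptors to ubiquitin transfer had a median of -0.13. Among these, 2 were lower and 0 higher, against 10.9% and 11.7% of all loci. *CUL1*, the scaffold, had ratios of -0.30, -0.20, -0.38 and -0.38 and a mean of -0.31 (adjusted p = 0.000885 in limma). *RBX1*, the RING subunit, had a mean of -0.15 (adjusted p = 0.0199), called in 9 of 21 alternatives and lost when replicate 1 or 4 was left out, and its direction turned with the brightest probe of each locus. With median centring, 3 *TIR1/AFB* genes were higher and 1 lower, and 1 SCF subunit was higher and 1 lower, where 27.2% of all loci were higher and 25.9% lower. Of the 5 *TPL/TPR* corepressor genes, 0 were called in limma, and the median was -0.070. An unadjusted p below 0.05 was seen for 2 of them, and for 10315 of all 29030 loci. With the brightest probe of each locus, 1 corepressor gene was higher and 2 lower, where 12.6% of all loci were higher and 10.9% lower. The scanner software's ratio gave 0 higher and 2 lower, where 15.3% of all loci were called in each direction.

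Of the 15 *ARF* genes, 1 was higher and 1 lower, against 11.7% and 10.9% of all loci, with a median of 0.013. *ARF5*, also known as *MONOPTEROS*, the activator needed for vascular and embryonic root development, had ratios of 0.27, 0.21, 0.23 and 0.29 and a mean of 0.25 (adjusted p = 0.00150 in limma). *ARF9* had ratios of -0.21, -0.26, -0.26 and -0.26 and a mean of -0.25 (adjusted p = 0.00143). The direction and the call of both held in 21 of 21 alternatives, some of which could not change the ratio.

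Other early targets of auxin ran both ways. Of 22 such genes of the *SAUR*, *GH3* and *LBD* families and others, 2 were higher and 4 lower, with a median of -0.011. Over all loci, 11.7% were higher and 10.9% lower. *SAUR16* (0.24, adjusted p = 0.00221 in limma) and *LBD16*, which acts in lateral root initiation (0.27, adjusted p = 0.00534), were higher. *GH3.5*, which conjugates auxin to amino acids (-0.23, adjusted p = 0.00308), and *SAUR15* (-0.23, adjusted p = 0.00329) were lower. The remaining called genes belong to the *SAUR19* group, whose near-identical copies may share a probe's signal and are uncertain as single genes.

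Of 11 genes of shade and elongation growth, 3 were lower and 0 higher, against 10.9% and 11.7% of all loci. Their median was -0.021. *PIF4*, a transcription factor that raises auxin synthesis in elongating hypocotyls, had ratios of -0.37, -0.39, -0.14 and -0.23 and a mean of -0.28 (adjusted p = 0.00281 in limma). *XTH15*, a cell wall enzyme gene, had a mean of -0.20 (adjusted p = 0.00555). *PIF5* had a mean of -0.16 (adjusted p = 0.0164), lost when replicate 1 or 4 was left out. *IAA19* and *IAA29*, both targets of *PIF4* or its relatives, had ratios of -0.090 and 0.069 and neither passed the test.

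**Figure D3:**
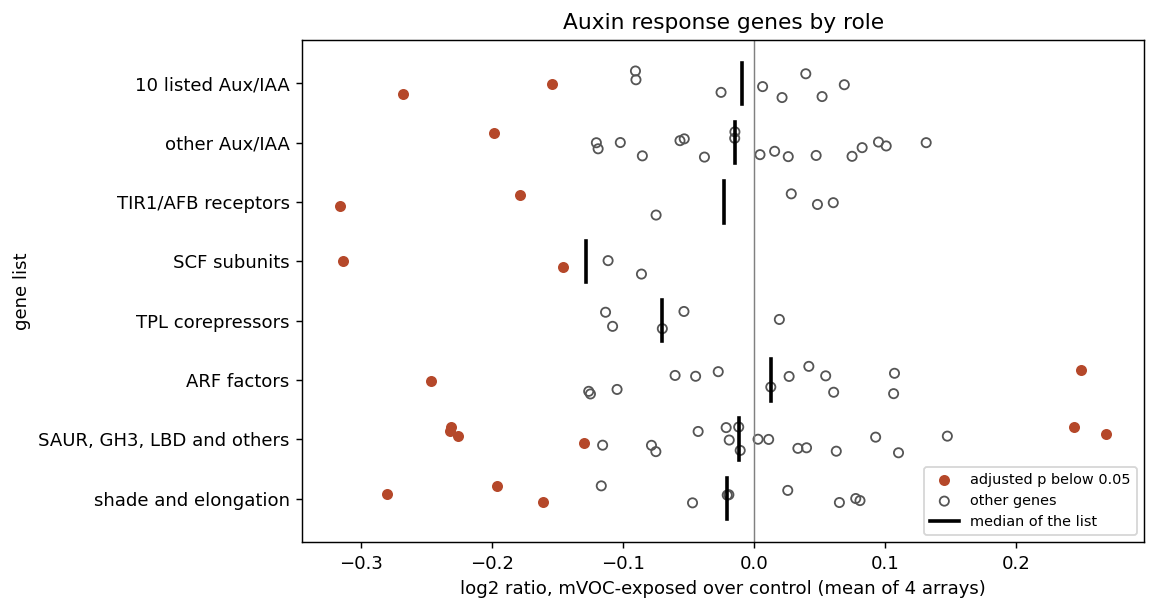
Mean log2 ratio of mVOC-exposed over control (horizontal axis) for each gene of the auxin pathway lists (vertical axis), filled where the adjusted p was below 0.05, with a bar at the median of each list. The 10 *Aux/IAA* genes have a median of -0.0094 with 2 filled points, both below 0, and medians run from -0.13 for the SCF subunits to 0.013 for the *ARF* genes.

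**Figure D4:**
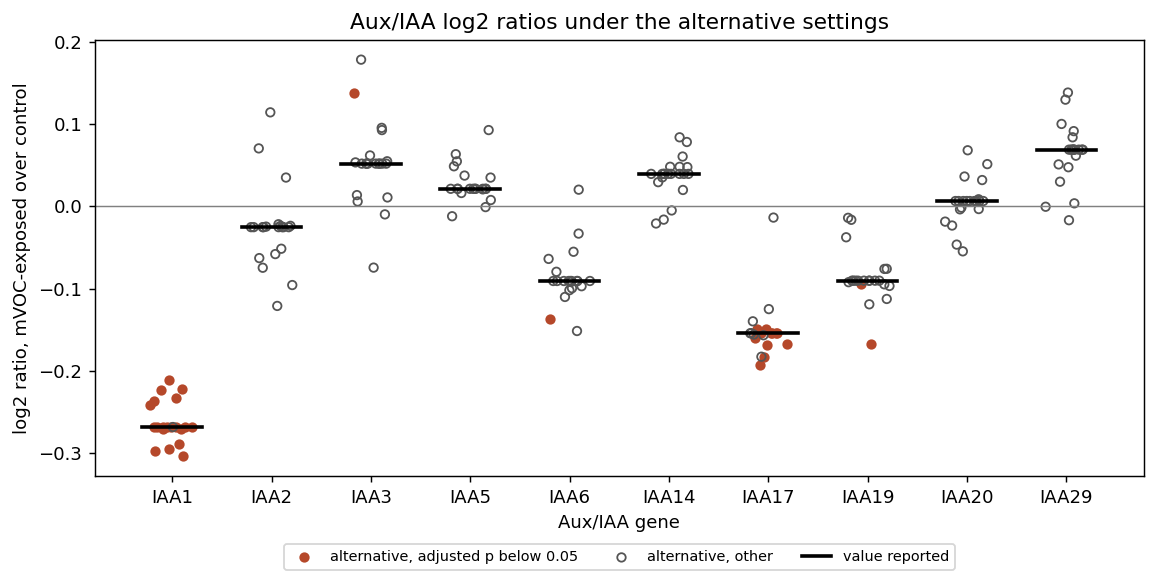
Log2 ratio of each *Aux/IAA* gene (vertical axis, genes on the horizontal axis) under 21 alternative settings, filled where the adjusted p was below 0.05, with a bar at the value reported. *IAA1* stays between -0.30 and -0.21, while the points of *IAA2*, *IAA3*, *IAA5*, *IAA6*, *IAA14*, *IAA20* and *IAA29* lie on both sides of 0.

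The genes whose ratios over the 4 arrays were nearest to those of *IAA1*, among 21242 loci measured above background, were *PAP8* (AT2G01890), *RHS12* (AT3G10710) and AT3G05160. The Euclidean distances over the 4 log2 ratios were 0.0388, 0.0412 and 0.0546. Their mean log2 ratios were -0.28, -0.25 and -0.27. With 4 values per gene this is a description of these arrays, and the ratios share the arrays and their normalisation.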

How the data were processed

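The authors deposited the output of Agilent Feature Extraction 11.5.1.1 for each of 4 arrays, with median spot and background intensity per dye on a linear scale, not normalised, and the software's log10 ratio of Cy5 over Cy3. A deposited table of the series repeats that log10 ratio for replicates 2 to 4, while its column for replicate 1 holds the error of the ratio and was not used. The study's methods name background subtraction, lowess and limma. A free-text description attached to the samples names another organism's cells, against the organism, tissue and titles, and was disregarded. Age and exposure time came from the study's text.

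Processing started from the median intensities and used limma 3.58.1 and statmod 1.5.0 under R 4.3.3. Spots marked for non-uniform background were set aside, normexp with an added offset of 50 removed the background, and arrays were normalised by loess with control spots at weight 0. Feature outliers and control spots were left out, and spots and then probes were averaged per locus. Intensities of single samples, with their sums, overlaps and correlations, rest on a further step between arrays. It was quantile normalisation of the average log intensity of the dyes (Aquantile), also used for the alternative with channels as separate samples. That step left the log2 ratios unchanged. The 4 log2 ratios of a locus entered an intercept-only limma fit followed by eBayes, and Benjamini-Hochberg adjustment covered 29013 loci. The remaining 17 loci had values on fewer than 2 arrays. Locus names were given for 38413 probes and not for 5190, and RefSeq held 28595 of the 29030 loci. The array's build differs from that table, so no coordinates are given, and probe sequences were not used here. The steps were tested on simulated data.

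Members, lists, markers and the background setting were chosen with earlier results of these data known. Named were all 10 members, up to 4 called genes of each list by smallest adjusted p, and the 3 loci nearest in pattern to the member that fell most. The called root and shoot markers were named as well. The samples of an array were paired by the design. After removal of group means, samples of 1 array correlated with r of 0.524 to 0.636. Control and exposed samples of different arrays had r of -0.349 to -0.0164. Removing a mean of 4 values itself pushes these below 0 when samples of 1 array correlate. The limma p-values rest on the spread between 4 biological replicates, drawn by eBayes towards a variance shared over all loci. Only the ordinary test used the spread of each locus alone. Alternatives covered background correction, normalisation, probe choice, variance model, slide, pairing, the deposited table and each replicate left out.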

Additional observations from a re-analysis of the deposited data

Results flagged for a closer look

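Of 30 sets of 4 values (control levels, exposed levels and ratios of the 10 genes), 1 held a sample far from the others. The log2 level of *IAA29* in the exposed sample of replicate 4 was 7.60, while those of the other exposed samples were 7.34 to 7.37, and its gap was 0.869 of the whole range, above Dixon's critical value for 4 samples. The control sample of replicate 4 was also the brightest of the controls for this gene, so the log2 ratio of that array was 0.091. Chance alone is expected to mark about 1 in 20 such sets.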

How the results depend on the processing

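Over 21 alternatives for each of the 10 genes, 177 of 210 values kept their direction and their side of the threshold. Settings that changed only the variance model, the slide term or the pairing could not change a ratio. Nor could the choice among probes for a gene with 1 probe. No gene had more than 2 probes, so the median of the probes equalled their mean for all 10. All 13 probes passed the filter for probes well above background, so that setting also left every ratio as reported. In such settings the direction was fixed in advance and only the call could change. Keeping outlier spots barely moved the ratios, such as -0.154149 in place of -0.154131 for *IAA17*. *IAA1* was called in 20 of 21, from -0.30 to -0.21, and missed in the ordinary test without shared variance (adjusted p = 0.0632). *IAA17* was below 0 in 21 and called in 13, with adjusted p from 0.00842 to 0.793. The number of lower *Aux/IAA* genes was 2 as reported, where 10.9% of all loci were lower. It was 1 without the offset (3.28% of all loci) and with plain background subtraction (3.05%). It was also 1 on slide 1 alone (4.92%) and with no replicate block, channels as separate samples (4.75%). The ordinary test gave 0 (1.07%), and slide 2 alone gave 3 (12%). When 1 replicate was left out the number was 1 to 2 (5.18% to 9.99%). With median centring, 1 was higher, *IAA3* (0.14, adjusted p = 0.0429), and *IAA6* was lower (-0.14, adjusted p = 0.0226). That setting called 27.2% of all loci higher and 25.9% lower.

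The counts of loci higher and lower were 3403 and 3175 as reported, 939 and 951 without the offset, 1346 and 881 with plain subtraction, 7904 and 7526 with median centring, 290 and 311 in the ordinary test, 1695 and 1424 on slide 1 alone, and 1548 and 1377 with no replicate block. The deposited table gave 2163 higher and 2246 lower. Leaving out 1 replicate gave 1625 to 3253 higher and 1502 to 2896 lower, the lowest without replicate 4. *IAA19* passed as lower in the deposited table (adjusted p = 0.0389 in limma) and on slide 2 alone (adjusted p = 0.0477). In these settings 7.74% and 12% of all loci were lower.

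The direction turned for 20 values, none of them called. The software's ratio gave -0.016 for *IAA14* and -0.055 for *IAA20*. The deposited table gave -0.021 for *IAA14*, -0.017 for *IAA29*, -0.0097 for *IAA3* and 0.020 for *IAA6*. Median centring gave 0.11 for *IAA2* and -0.046 for *IAA20*, and inclusion of all spots gave -0.0016 for *IAA20*. Slide 1 alone gave -0.0050 for *IAA14*, 0.070 for *IAA2*, -0.023 for *IAA20*, -0.00047 for *IAA29* and -0.012 for *IAA5*, and slide 2 alone gave -0.074 for *IAA3*. With 1 replicate left out, *IAA2* ran from -0.063 to 0.035, *IAA20* from -0.019 to 0.051 and *IAA5* from -0.00091 to 0.049. The cause was not tested. Dim probes limit *IAA6*, *IAA20* and *IAA29*.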
